A study of Caenorhabditis elegans with 12 samples.

Results

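The genes described here encode the machinery that makes small interfering RNAs (siRNAs) in Caenorhabditis elegans, and the measurement is the number of small RNAs that lie antisense to those genes themselves. The 9 genes were taken by name from the 32238 genes counted: dcr-1, drh-3, ekl-1, eri-1 and rde-4, which encode Dicer and proteins that work with it or with the polymerases, and ego-1, rrf-1, rrf-2 and rrf-3, which encode RNA-dependent RNA polymerases. All 9 were found in the tables. A count on such a gene is not the level of its messenger RNA or protein. It is the number of small RNA reads in the orientation of an siRNA made against its transcript.

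Dicer is the ribonuclease that cuts double-stranded RNA into siRNAs and also matures microRNAs. RDE-4 binds long double-stranded RNA and hands it to Dicer, and is not needed for microRNAs. RNA-dependent RNA polymerases copy transcripts into the second strand: RRF-3 does so in the ERI complex, upstream of Dicer, for the primary endogenous siRNAs of germline and somatic Argonautes, whereas EGO-1 (mainly in the germline) and RRF-1 (mainly in the soma) make secondary siRNAs, which carry a 5′ triphosphate and are not Dicer products.

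Small RNA libraries were made from whole hermaphrodites of 4 strains, with 3 biological replicates per strain. The strains were N2 wild type (WT), the rde-4 null mutant ne301 (rde-4 below), the age-1 mutant hx546, in which insulin/IGF-1 signaling is moderately lowered (age-1 below), and a double mutant that carries both alleles. The mutants had been outcrossed to N2. All worms were grown at 20 °C on Escherichia coli OP50 and collected on day 1 of adulthood, when no embryos could be seen. The libraries enriched RNAs with a 5′ monophosphate, which favors primary over secondary siRNAs, and inserts of 18 to 40 bp were kept.

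The 12 libraries held 2449703 to 3590005 antisense counts each, most of them on genes that lie opposite a microRNA gene (59.8% to 81.7%). The share on genes without an opposite-strand gene was 6.29% to 9.34% for WT libraries and 4.48% to 5.19% for rde-4 libraries, while age-1 libraries had 9.88% to 11.8% and double mutant libraries 2.58% to 3.16%. The share on genes opposite tRNA genes was 5.04% to 8.27% for WT libraries and 14.3% to 21.6% for rde-4 libraries, while age-1 libraries had 5.63% to 23.8% and double mutant libraries 17.7% to 28.4%. Whole worms were used, so fewer cells of a type and fewer small RNAs per cell cannot be told apart. The marker values below are counts of antisense small RNAs on the marker genes. They are not levels of messenger RNA and do not measure numbers of cells. Summed counts of 6 sperm marker genes, as counts per 1000000 (CPM) scaled by the trimmed mean of M values (TMM), were 66.7 to 93.0 for WT and 13.1 to 22.7 for rde-4, against 139 to 248 for age-1 and 23.9 to 44.03 for the double mutant. Over the strains in that order, 4 oocyte markers summed to 19.3 to 32.6, 13.4 to 28.2, 14.5 to 15.05 and 13.7 to 19.9 CPM, and 3 body wall muscle markers to 2.93 to 7.86, 9.40 to 21.2, 1.97 to 3.39 and 5.05 to 41.7 CPM. Of the muscle markers, unc-15 had 4, 25 and 8 counts in WT, 21, 48 and 20 in rde-4 and 4, 65 and 62 in the double mutant. The muscle markers unc-54 and myo-3 had at most 8 counts in any library. Intestine and neuron markers stayed at or below 10.1 CPM in all libraries. Of the 5 sperm markers tested, 4 fell in rde-4 against WT and 4 in the double mutant against age-1. Of all genes tested, 16% and 30% fell in these comparisons. Whether the markers are themselves targets of RDE-4-dependent siRNAs was not tested. The part that any of the differences in this paragraph has in the results below was not tested either.

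The ne301 allele cannot be read from these counts. Small RNAs on 3 reference targets of the RDE-4 pathway were lost in both strains that carry it. These targets were picked with earlier results of these data known, so their loss is no independent check of the allele. On K02E2.6, a target of primary endogenous siRNAs, WT libraries had 724, 553 and 910 counts and rde-4 libraries 4, 4 and 6, while age-1 libraries had 560, 597 and 700 and double mutant libraries 1, 1 and 0. W04B5.1 had 181, 218 and 527 counts in WT and 0, 0 and 2 in rde-4, and C44B11.6 had 109, 110 and 82 in WT and 1, 2 and 0 in rde-4. Among the machinery genes, none of the 7 that could be tested fell in rde-4 against WT, where 16% of all 4797 genes tested fell.

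All 9 genes carried few antisense small RNAs. Their totals over the 12 libraries ran from 55 counts on rde-4 to 337 on ego-1, and together they held 1296 counts, or 37.4 CPM of the library totals. Of the 108 single values, 52 were below 10 counts and the highest was 57. Per kb of exon, over all libraries, the 9 genes lay between 17.1 counts (rrf-2) and 63.7 counts (ego-1), above the median of 14.2 for genes with any count. That placed them between the 63.6th and the 82.5th percentile of all genes. Among 55 other genes of RNA silencing, grouped by pathway, the median was 51.9 counts per kb and the range 1.95 to 376, so that the machinery genes (median 35.5) lay inside that range.

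**Figure D1:**
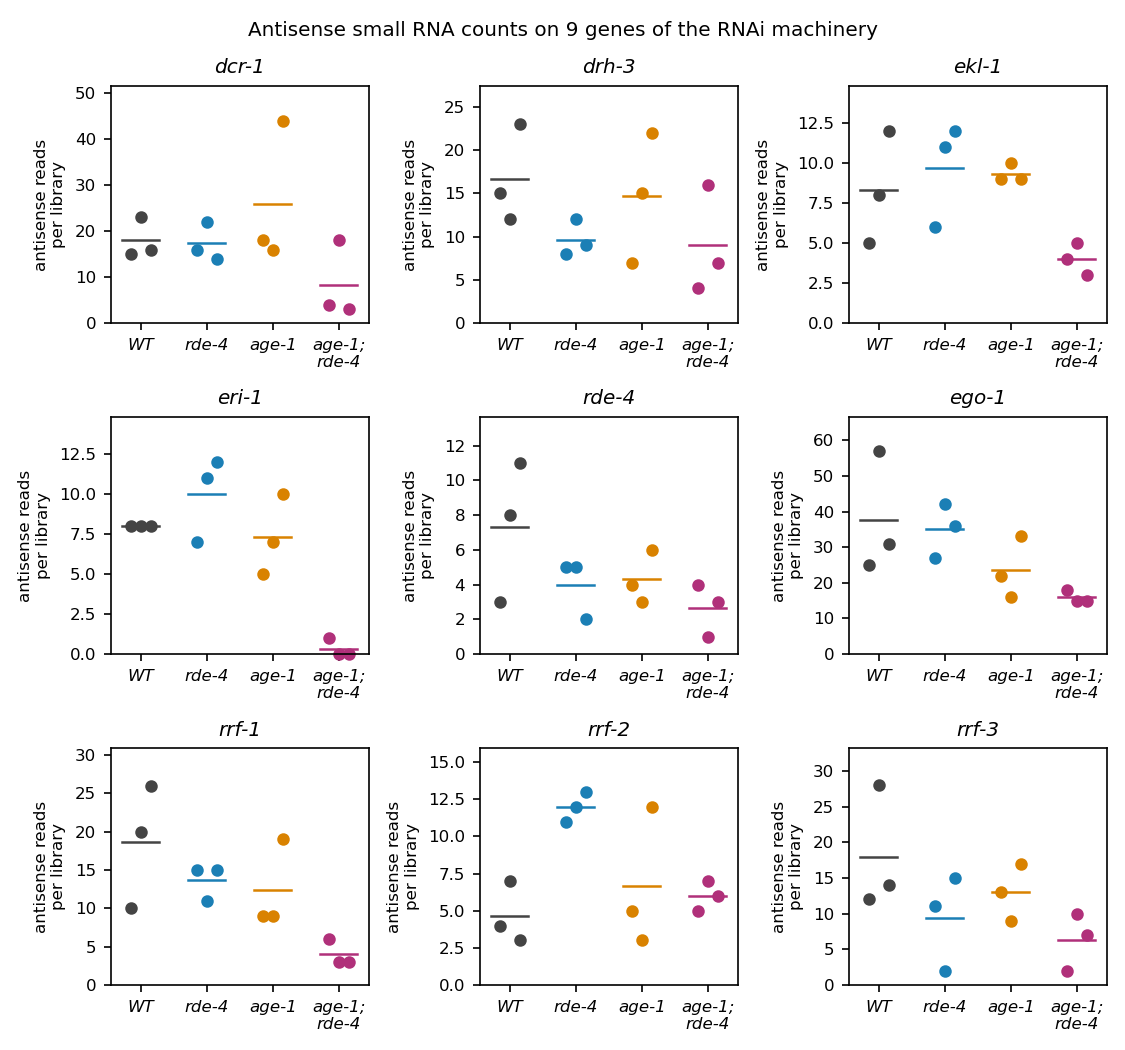
Antisense small RNA counts per library (vertical axis, linear, own scale per gene) for the 9 genes, with 1 point per library and a line at the mean of the 3 libraries of each strain (horizontal axis). eri-1 stands at 1, 0 and 0 counts in the double mutant and at 5 to 12 in the other 9 libraries, and rrf-2 stands at 11 to 13 in rde-4 and at 3 to 7 in WT.

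Dicer itself, encoded by dcr-1 (chromosome III, 8071967 to 8080281, build WBcel235, minus strand, no gene annotated on the other strand), had 15, 23 and 16 antisense counts in the WT libraries and 16, 22 and 14 in those of rde-4. The age-1 libraries had 18, 16 and 44 counts and the double mutant libraries 4, 18 and 3. The libraries of the strains overlapped in every comparison, with 1 high library in age-1 (replicate 3) and 1 in the double mutant (replicate 2).

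The gene of the other defining partner, rde-4 (chromosome III, 10217302 to 10218646, minus strand), had the fewest counts. The WT libraries had 3, 8 and 11 and the rde-4 libraries 5, 5 and 2, while age-1 had 4, 3 and 6 and the double mutant 4, 1 and 3. It was below the filter on low counts in all comparisons of strains, so the main test was not run on it. Without the filter, edgeR gave adjusted p of 0.733 in rde-4 against WT and 0.661 in age-1 against WT. For the double mutant the adjusted p was 0.971 against age-1 and 0.994 against rde-4. Reads antisense to rde-4 were thus present in every library of both strains that carry ne301.

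The gene drh-3 (chromosome I, 7820831 to 7826378, plus strand) encodes a Dicer-related helicase and ekl-1 (chromosome I, 7095486 to 7098400, plus strand) a Tudor domain protein, and both proteins act with the polymerases in making secondary siRNAs. For drh-3 the WT libraries had 15, 12 and 23 counts and the rde-4 libraries 8, 12 and 9, while age-1 had 7, 15 and 22 and the double mutant 4, 16 and 7. For ekl-1 the WT libraries had 5, 8 and 12 counts and the rde-4 libraries 6, 11 and 12, while age-1 had 9, 10 and 9 and the double mutant 4, 5 and 3. The strains overlapped throughout for drh-3, whereas for ekl-1 the 3 double mutant libraries lay below all those of age-1 and of rde-4 in counts. That held for 16.4% and 13.1% of all genes with any count in the strains compared.

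The gene eri-1 (chromosome IV, 415635 to 419958, minus strand) encodes a 3′ to 5′ exonuclease of the ERI complex that limits the response to experimental RNAi. It had 8 counts in each of the 3 WT libraries and 7, 11 and 12 in those of rde-4. The age-1 libraries had 5, 7 and 10 counts, and the double mutant libraries had 1, 0 and 0. The double mutant was thus nearly empty of eri-1 antisense reads, while neither single mutant stood apart from WT.

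Among the polymerase genes, ego-1 (chromosome I, 7650341 to 7656338, minus strand) had the most counts. The WT libraries had 25, 57 and 31 and the rde-4 libraries 27, 42 and 36, while age-1 had 22, 16 and 33 and the double mutant 18, 15 and 15. Its neighbor rrf-1 (chromosome I, 7643431 to 7649777, minus strand), which lies 563 bp from it on the same strand, had 10, 20 and 26 counts in the WT libraries, 15, 11 and 15 in those of rde-4, 9, 9 and 19 in those of age-1, and 6, 3 and 3 in those of the double mutant. Every double mutant library had fewer counts than every rde-4 library for both genes, as was the case for 13.1% of all genes with any count. Reads with up to 50 hits were kept in the mapping, so a read that matches both genes could count on each, and how much sequence they share was not analysed here.

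The gene rrf-2 (chromosome I, 12098664 to 12106112, minus strand), a further member of the polymerase family, had 4, 7 and 3 counts in the WT libraries and 11, 12 and 13 in those of rde-4, against 5, 3 and 12 for age-1 and 5, 7 and 6 for the double mutant. The gene rrf-3 (chromosome II, 8162465 to 8168651, plus strand), which encodes the polymerase of the ERI complex, had 12, 28 and 14 counts in the WT libraries and 11, 2 and 15 in those of rde-4, against 13, 9 and 17 for age-1 and 2, 10 and 7 for the double mutant. The rde-4 libraries lay above all WT libraries for rrf-2, as for 3.99% of all genes with any count, and the strains overlapped for rrf-3. Of the 9 genes, rrf-3 alone shares exon sequence with a gene on the other strand, 37 bp with T05C12.11, which had 24 counts over the 12 libraries.

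**Figure D2:**
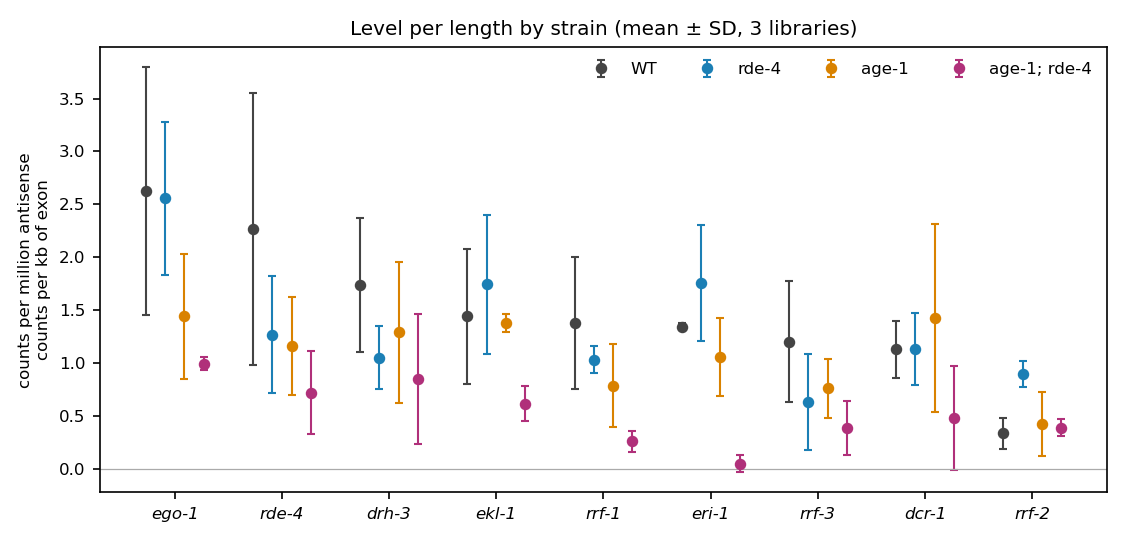
Mean level of each gene by strain in CPM of the library total per kb of exon (vertical axis, linear), with error bars of 1 SD over 3 libraries, and genes on the horizontal axis in the order of their WT level. In WT, ego-1 leads at 2.62 and rrf-2 is last at 0.33. In the double mutant, eri-1 is last at 0.05.

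When set side by side per length, the 9 genes hardly separated within a strain. In WT the levels ran from 2.62 ± 1.17 CPM of the library total per kb for ego-1 through 2.27 ± 1.29 for rde-4, 1.73 ± 0.63 for drh-3, 1.44 ± 0.64 for ekl-1, 1.38 ± 0.62 for rrf-1, 1.34 ± 0.03 for eri-1, 1.199 ± 0.574 for rrf-3 and 1.13 ± 0.27 for dcr-1 to 0.33 ± 0.15 for rrf-2 (SD, n = 3). Of the 8 neighboring pairs in that order, 7 overlapped in their library ranges, and the exception was rrf-2, which lay below dcr-1. In rde-4 and in age-1 all 8 neighboring pairs overlapped, with ego-1 first in both (2.55 ± 0.72 and 1.44 ± 0.59). The last gene was rrf-3 in rde-4 (0.63 ± 0.45) and rrf-2 in age-1 (0.42 ± 0.31). In the double mutant ego-1 was again first (0.99 ± 0.06), and the exception was eri-1 at 0.05 ± 0.08, below rrf-1 at 0.26 ± 0.10.

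The first comparison asks what loss of RDE-4 does in an otherwise wild-type worm. 7 of the 9 genes passed the filter on low counts, and rrf-2 was the only one of them that rose, while 0 fell. Of all 4797 genes tested, 10.8% rose and 16% fell (26.7% in either direction). The rde-4 level of rrf-2 was 5.05 ± 0.14 CPM against 1.53 ± 0.52 in WT (SD, n = 3), which made a log2 fold change of 1.70 (SE 0.52) with an adjusted p of 0.0229 by the quasi-likelihood test of edgeR. Its libraries did not overlap in CPM, which held for 16.3% of the genes tested in that direction. Its raw counts and its CPM of the library total, the latter with 5.65% of all genes with any count, did not overlap either.

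The call on rrf-2 rested on few counts (36 in rde-4 and 14 in WT) and on the processing. The log2 fold change was 1.39 with library totals as the scale (adjusted p = 0.112), 1.59 with counts opposite microRNA genes as the scale (adjusted p = 0.0690) and 1.61 by DESeq2 (adjusted p = 0.248, DESeq2 calling 12.2% of the genes it tested and 0 of the 9). Leaving out WT replicate 2 or 3 or any rde-4 replicate gave adjusted p between 0.0676 and 0.133, with log2 fold changes of 1.40 to 1.89. The edgeR call held with RLE scaling (adjusted p = 0.0231), a stricter filter (0.0221) and all 12 libraries in one fit (0.0254). It also held among genes without an opposite-strand gene (0.0117), with the replicate number as a block (0.0144) and without WT replicate 1 (0.0426). Under the block, 642 of the 4797 genes tested rose. The 3 genes whose levels over the 12 libraries were most like those of rrf-2 all lie opposite a tRNA gene, the class whose share of counts differed between rde-4 and WT as given above, and the part of that class in the rise of rrf-2 was not tested.

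None of the other 6 tested genes passed the threshold in rde-4 against WT, and 1 of the 7, rrf-2, had an unadjusted p below 0.05, as did 33.7% of all genes tested. dcr-1 had 7.33 ± 1.85 CPM in rde-4 and 5.94 ± 0.84 in WT (log2 fold change 0.30, SE 0.37), and ego-1 had 14.7 ± 2.85 and 12.04 ± 3.08 (0.28, SE 0.35). The log2 fold change was 0.57 (SE 0.51) for ekl-1, -0.07 (SE 0.40) for rrf-1, -0.45 (SE 0.45) for drh-3 and -0.56 (SE 0.53) for rrf-3. The smallest adjusted p among these 6 was 0.522. The median over the 7 was 0.28, beside 0.06 over all genes tested.

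**Figure D3:**
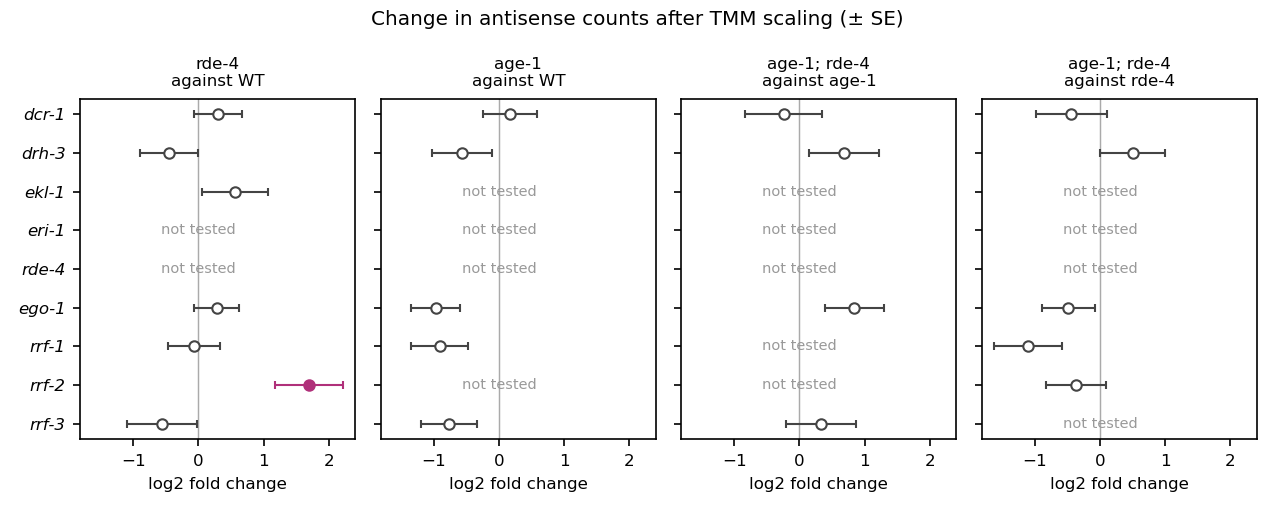
Log2 fold changes of antisense counts after TMM scaling (horizontal axis, error bars of 1 SE) in the 4 comparisons of strains, with 1 row per gene, a filled point where the adjusted p was below 0.05, and "not tested" where a gene was below the filter on low counts. The only filled point is rrf-2 in rde-4 against WT, at 1.70.

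The second comparison asks what the age-1 mutation does by itself. 5 of the 9 genes were tested and 0 passed the threshold by edgeR, where 10.9% of the 5000 genes tested did (7.66% higher and 3.28% lower). DESeq2 gave an adjusted p for the same 5 and called 0, where it called 819 higher and 84 lower of 4211 genes. By edgeR, 1 of the 5, ego-1, had an unadjusted p below 0.05, as did 38.4% of all genes tested. The polymerase genes ego-1, rrf-1 and rrf-3 stood lower in age-1 than in WT with no overlap of libraries in CPM, a pattern found in 16.9% of the genes tested. ego-1 had 7.08 ± 1.92 CPM in age-1 against 13.9 ± 3.69 in WT (log2 fold change -0.97, SE 0.38, adjusted p = 0.0820). rrf-1 had 3.63 ± 1.17 against 6.85 ± 2.10 (-0.91, SE 0.44, adjusted p = 0.137), and rrf-3 had 3.92 ± 0.99 against 6.63 ± 2.01 (-0.76, SE 0.43, adjusted p = 0.191). In CPM of the library total, the age-1 and WT libraries of ego-1, rrf-1 and rrf-3 overlapped.

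The replicate number was taken to pair the samples in this comparison, from the data and not from the labels. With it as a block, ego-1 passed (log2 fold change -0.96, SE 0.36, adjusted p = 0.0286), but so did 39.1% of all genes tested (17.4% lower) instead of 10.9%. ego-1 also passed without age-1 replicate 3 (-1.10, adjusted p = 0.0455), where 35.7% of all genes tested did. dcr-1 and drh-3 gave log2 fold changes of 0.17 (SE 0.42) and -0.56 (SE 0.46). That of dcr-1 rested on the 44 counts of age-1 replicate 3, and was -0.23 without it. The median over the 5 genes was -0.76, beside -0.17 over all genes tested.

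The third comparison asks what loss of RDE-4 does in the age-1 background. 4 of the 9 genes were tested and 0 passed the threshold by edgeR, where 49.1% of the 4003 genes tested passed (19.1% higher and 30% lower). 0 of the 4 had an unadjusted p below 0.05 (56% of all genes). DESeq2 gave an adjusted p for 7 of the 9 and called 0, where it called 431 higher and 1177 lower of 7005 genes. ego-1 had 8.49 ± 1.99 CPM in the double mutant and 4.68 ± 1.496 in age-1 (log2 fold change 0.84, SE 0.45, adjusted p = 0.125), with no overlap of the libraries, which held for 22.2% of genes in that direction. The values were 0.68 (SE 0.54) for drh-3, 0.33 (SE 0.54) for rrf-3 and -0.24 (SE 0.59) for dcr-1. Without double mutant replicate 2 they were 0.01, -0.14 and -1.43, and without age-1 replicate 3 that of dcr-1 was 0.25. Among genes without an opposite-strand gene alone, ego-1 passed (1.33, adjusted p = 0.0176), as did 50.6% of the genes tested that way.

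The direction of these values also depended on the scale. The TMM scale followed the genes tested, so that their median log2 fold change was 0.02, whereas the median was -1.32 with library totals and -1.148 with counts opposite microRNA genes. On those scales ego-1 stood at -0.53 and -0.33, drh-3 at -0.61 and -0.46 and rrf-3 at -0.97 and -0.79. Among the genes that passed the filter, ego-1, drh-3 and rrf-3 stood above the median on each of these scales and dcr-1 below it, whereas without the filter rrf-3 lay below the median on each.

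Among the 9 genes, the widest gap between strains was that of eri-1, which was below the filter in each comparison of strains and was therefore looked at without it. Scaled by TMM, its summed count was 8.38-fold higher in age-1 than in the double mutant (22 counts against 1, exact binomial 95% interval 1.35 to 346, counting error only) and 19.3-fold higher in rde-4 than in the double mutant (30 counts against 1, 3.21 to 788). The single count of the double mutant came from its replicate 1, without which the ratio has no value. Leaving out double mutant replicate 2 or 3 gave 5.41 and 5.40 against age-1 and 12.3 and 12.7 against rde-4, and library totals as the scale gave 21.1 and 34.7. All 3 double mutant libraries lay below all libraries of age-1 and of rde-4, in counts and in CPM. In counts the same held for 16.4% (age-1) and 13.1% (rde-4) of all genes with any count in the strains compared. In CPM of the library total it held for 17.3% and 21.3%. Without the filter, edgeR gave a log2 fold change of -3.34 against age-1 (SE 1.205, adjusted p = 0.0601) and -3.93 against rde-4 (SE 1.07, adjusted p = 0.0658), where 9.03% and 0.308% of genes passed. These fitted values depend on the prior count, since 2 of the 3 double mutant libraries were at 0.

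The adjusted p of eri-1 crossed the threshold on the other scales, chosen after the data were seen. With library totals and no filter the log2 fold changes were -3.98 (adjusted p = 0.0132, 11% of genes called) and -4.66 (adjusted p = 0.00138, 3.19% of genes called), and with counts opposite microRNA genes as the scale they were -3.83 (adjusted p = 0.0161, 10.6% called) and -4.53 (adjusted p = 0.00331, 1.6% called). With library totals and no filter, dcr-1 also crossed the threshold against age-1 (log2 fold change -1.57, adjusted p = 0.0487). With counts opposite microRNA genes as the scale, dcr-1 did not (-1.38, adjusted p = 0.0922). DESeq2 gave no adjusted p for eri-1 in either comparison. The test of whether RDE-4 loss acted differently in the age-1 and WT backgrounds gave -3.66 (SE 1.31) without the filter, with an unadjusted p of 0.00508 and an adjusted p of 0.714. In rde-4 against WT its log2 fold change was 0.55 (SE 0.57), and in age-1 against WT it was -0.18 (SE 0.64).

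How many genes shared that pattern was looked up because of eri-1. The bounds on counts were its own, so it met them by construction, and whether the pattern is rare was not tested. The 3654 genes below had no upper limit on their counts in the 9 other libraries. Of 3654 genes with at least 5 counts in each of the 9 other libraries, 3 had at most 1 count in each double mutant library (0.0821%), namely eri-1, linc-18 and Y47G6A.18. Of 1359 genes whose sum over the 9 other libraries was within 20% of that of eri-1 (76 counts), 28 had at most 1 count over the double mutant (2.06%). In 4 of these, eri-1 included, the rde-4 sum was also at least 0.5 times the WT sum (0.294%).

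**Figure D4:**
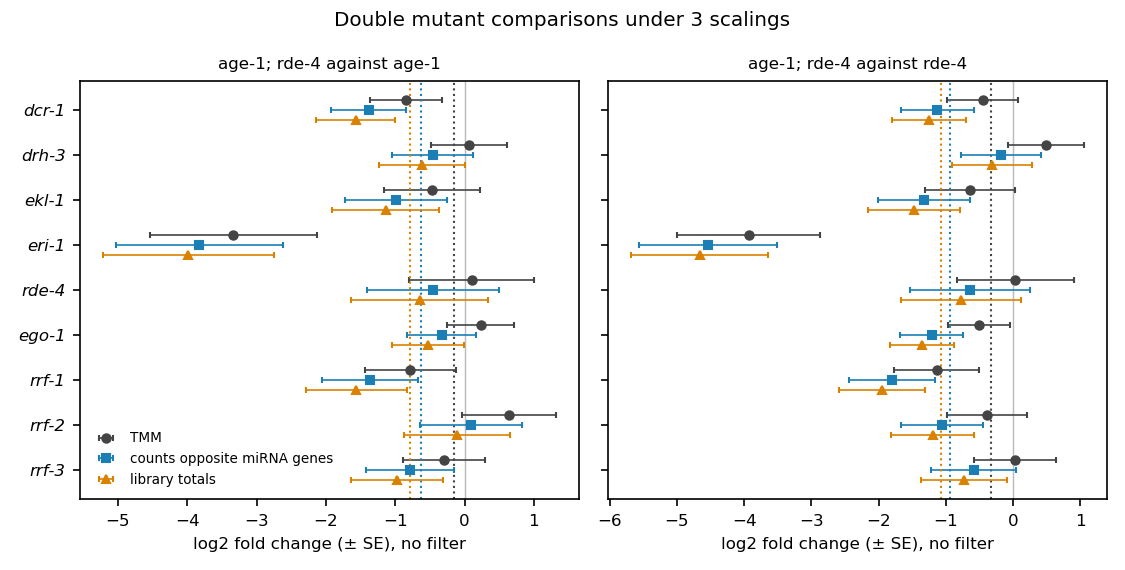
Log2 fold changes without the filter (horizontal axis, error bars of 1 SE) of the 9 genes in the double mutant against age-1 (left) and against rde-4 (right), under TMM, counts opposite miRNA genes and library totals as the scale, with dotted lines at the median of all genes on each scale. eri-1 lies at -3.34 to -3.98 on the left and at -3.93 to -4.66 on the right, apart from the other genes, which move with the dotted lines.

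The fourth comparison sets the double mutant against rde-4 and asks what the age-1 mutation does once RDE-4 is gone. 5 of the 9 genes were tested and 0 passed the threshold by edgeR, where 0.894% of the 3581 genes tested did. DESeq2 gave an adjusted p for ego-1 alone, which did not pass, where it called 74 higher and 8 lower of 1556 genes. rrf-1 had 1.83 ± 1.00 CPM in the double mutant and 3.89 ± 0.72 in rde-4 (log2 fold change -1.11, SE 0.52, adjusted p = 0.319), and was the only 1 of the 5 with an unadjusted p below 0.05, as were 15.1% of all genes. rrf-2 had 2.63 ± 0.18 against 3.42 ± 0.48 CPM (-0.37, SE 0.46). Neither of them overlapped between the strains in CPM, as was the case for 12.3% of genes in that direction. The other values were -0.49 (SE 0.41) for ego-1, -0.44 (SE 0.54) for dcr-1 and 0.50 (SE 0.51) for drh-3.

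With library totals as the scale, 2 of the 5 passed, ego-1 (log2 fold change -1.35, adjusted p = 0.0301) and rrf-1 (-1.95, adjusted p = 0.0202), but so did 27.6% of all genes tested, whose median moved from -0.03 to -0.87. With counts opposite microRNA genes as the scale, rrf-1 alone passed (-1.80, adjusted p = 0.0360), with 14.2% of all genes. In CPM of the library total, the double mutant lay below rde-4 without overlap for 5 of the 9 genes (ekl-1, eri-1, ego-1, rrf-1 and rrf-2), a pattern found in 21.3% of all genes with any count. Against age-1 the same held for 3 (ekl-1, eri-1 and rrf-1), with 17.3% of all genes.

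Whether RDE-4 loss acted differently on the genes in the age-1 background and in WT was tested as an interaction over all 12 libraries. 7 of the 9 genes entered, and 0 passed the threshold or had an unadjusted p below 0.05 by edgeR, where 0.154% of 5843 genes passed and 8.81% had such a p. DESeq2 gave an adjusted p for 2 of them, dcr-1 and ego-1, of which 0 passed, where it called 17 higher and 7 lower of 3209 genes. The log2 differences ran from -0.53 (SE 0.69) for dcr-1 to 1.153 (SE 0.69, adjusted p = 0.645) for drh-3, and that of rrf-2 was -0.43 (SE 0.80). In the fit of all 12 libraries, the log2 fold change of rrf-2 was 1.71 (SE 0.55) in rde-4 against WT. It was 1.28 (SE 0.58, adjusted p = 0.0840) in the double mutant against age-1, but -0.11 (SE 0.77) with library totals and no filter. The difference between the rise of rrf-2 in rde-4 and its value in the age-1 background was thus smaller than its error.

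The sum over the 9 genes gives the level of antisense small RNAs on the machinery as a whole. In CPM of the library total it was 50.8 ± 14.2 for WT and 46.3 ± 7.92 for rde-4, against 37.5 ± 16.4 for age-1 and 18.8 ± 5.94 for the double mutant (SD over 3 libraries). The libraries of WT, rde-4 and age-1 overlapped, while the double mutant libraries (14.99 to 25.6) overlapped with age-1 (24.5 to 55.9) and lay below WT and rde-4. With the counts of genes without an opposite-strand gene as the denominator, the order was different, at 612 ± 56.5 CPM for WT and 971 ± 123 for rde-4, against 341 ± 120 for age-1 and 632 ± 160 for the double mutant. The double mutant thus had the lowest sum of the 4 strains relative to the whole library and a sum close to that of WT relative to genes without an opposite-strand gene.

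**Figure D5:**
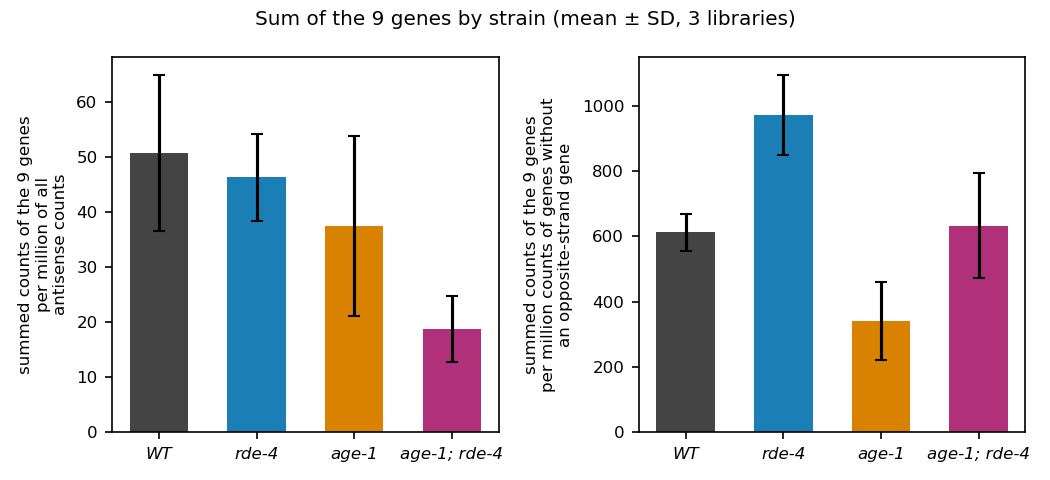
Summed antisense counts of the 9 genes in CPM of all antisense counts (left) and in CPM of the counts on genes without an opposite-strand gene (right), as bars from 0 with the mean of 3 libraries and error bars of 1 SD, for the 4 strains on the horizontal axis. The double mutant is lowest on the left (18.8) and near WT on the right (632 against 612).

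Among the other genes of RNA silencing, 55 genes in 6 lists, 36 were tested in rde-4 against WT, of which 0 rose and 2 fell by edgeR, beside 26.7% of all genes tested (16% lower). DESeq2 called 1 of the 51 it tested, beside 12.2% of all genes it tested. Both were Argonaute genes, alg-3 and alg-4, which encode the spermatogenesis Argonautes that bind primary siRNAs. alg-3 had 46, 78 and 55 counts in WT and 23, 19 and 16 in rde-4 (log2 fold change -1.25, SE 0.35, adjusted p = 0.0131), and alg-4 had 51, 71 and 45 and 23, 11 and 23 (-1.20, SE 0.38, adjusted p = 0.0277). The libraries did not overlap for either gene. The median over the 36 was 0.09, beside 0.06 over all genes tested.

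In age-1 against WT, 1 of 35 rose and 1 fell, beside 10.9% of all genes, and 13 of the 35 had an unadjusted p below 0.05, beside 38.4%. The gene henn-1 encodes the methyltransferase that protects the 3′ ends of piRNAs and of some primary siRNAs. It rose from 18, 14 and 10 counts to 36, 80 and 49 (log2 fold change 1.59, SE 0.44, adjusted p = 0.0406). sid-1, which encodes the channel that imports double-stranded RNA into cells, had 25, 53 and 37 counts in WT and 13, 16 and 31 in age-1 and fell on the TMM scale (-1.26, SE 0.38, adjusted p = 0.0469), though not with library totals (-1.151, adjusted p = 0.131).

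In the double mutant against age-1, 3 of 28 rose and 4 fell, beside 19.1% and 30% of all genes tested. Of all 7005 genes that DESeq2 tested, it called 431 higher and 1177 lower. Among the 40 silencing genes it tested, it called 4, the genes that fell, and none of the 3 that rose by edgeR. The 5 with the smallest adjusted p were alg-4, henn-1, alg-3, sid-1 and vig-1, a gene whose product is found with microRNA Argonautes. alg-4 went from 128, 170 and 123 counts to 11, 10 and 6 (log2 fold change -2.55, SE 0.42, adjusted p = 8.32e-05), henn-1 from 36, 80 and 49 to 3, 4 and 5 (-2.36, SE 0.52, adjusted p = 0.00104) and alg-3 from 112, 143 and 87 to 17, 9 and 6 (-1.99, SE 0.46, adjusted p = 0.00165). These 3 genes fell on every scale tried. sid-1 was higher after TMM scaling (1.67, SE 0.45, adjusted p = 0.00504) and not called with library totals (0.34), and vig-1 fell (-1.27, SE 0.48, adjusted p = 0.0340). The remaining calls were rises of eri-6 (0.91) and rsd-2 (1.37) on the TMM scale, which stood at -0.43 and -0.01 with library totals.

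Against rde-4, 30 of the 55 genes were tested in the double mutant and 0 passed by edgeR (0.894% of all genes). At an unadjusted p below 0.05 by edgeR were 4 of 30 (15.1% of all genes). Of the 13 that DESeq2 tested, 0 passed, where it called 74 higher and 8 lower of 1556 genes. In the interaction, 38 were tested and 0 passed by edgeR (0.154% of all genes), with 3 at an unadjusted p below 0.05 (8.81% of all genes). Of the 24 that DESeq2 tested, 0 passed, where it called 17 higher and 7 lower of 3209 genes. By pathway, the calls on loss of RDE-4 from WT and from age-1 were 2 and 4 of the tested ERI complex and Argonaute genes (6 and 5 tested, all calls lower but that of eri-6), 0 and 2 of the exogenous RNAi genes (7 and 5 tested) and 0 and 1 of the microRNA genes (4 tested in each), beside 26.7% and 49.1% of all genes, while mutator, nuclear RNAi and secondary Argonaute genes had 0 calls in all comparisons.

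The 9 genes varied largely apart from each other over the 12 libraries. The correlation of log2(CPM + 0.5) between members, which also reflects shared depth and strains, had a median of 0.03 over the 36 pairs and ran from -0.45 (dcr-1 and rde-4) to 0.71 (eri-1 and rrf-1), with 21 pairs above 0. Among 8667 genes with at least 1 CPM on average, the genes most like ego-1 were enu-3.3 (r = 0.95), pfd-5 (0.92) and bath-6 (0.91), and those most like rrf-1 were F58D2.5 (0.92), aptf-2 (0.90) and coh-3 (0.90). Those most like rrf-2 were T25D1.4 (0.93), F42G10.4 (0.93) and R11B5.8 (0.92), all opposite tRNA genes. For eri-1 they were lpd-2, linc-18 and gck-2 (0.88 to 0.89), for dcr-1 cwc-15, M03F8.3 and F58B3.6 (0.88 to 0.89), and for drh-3 R155.10, hda-2 and F22B5.10 (0.85 to 0.87). For ekl-1 they were his-37, ubc-14 and C15C6.2 (0.81 each), for rde-4 F12A10.2, qns-1 and nhr-2 (0.81 to 0.89), and for rrf-3 Y38F2AL.12, nadk-1 and puf-7 (0.84 to 0.86). With counts this low, such values describe these libraries and no more.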

How the data were processed

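Small RNA reads had been aligned by the authors to the WBcel235 genome (release WS283) using QuasR with Bowtie, allowing up to 50 hits, and those antisense to a gene were counted. The version of each tool is not given in the sources used here. Each of the 3 deposited tables gives raw counts for 32238 genes and single libraries, with no normalization. The 6 library columns that stand in more than 1 table held 0 differing values and were used once, and 0 columns of counts were left unmapped. The authors' table width of each gene (exon length in bp, deposited beside the counts) gave the values per kb. It equaled the exon length in Ensembl release 115 for 5 of the 9 genes. Gene positions and opposite-strand genes came from that annotation, in which 30629 genes were placed, 22074 of them without an opposite-strand gene and 43 opposite a microRNA gene.

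The main test was the two-sided quasi-likelihood F test of edgeR 4.0.16 (R 4.3.3) after TMM scaling and filterByExpr (minimum count 10), with Benjamini-Hochberg adjustment over the genes that passed and a threshold of 0.05. A fit held the 6 libraries of the strains compared, or all 12 for the interaction. SEs come from the F statistic. CPM is scaled by TMM within a comparison. Alternatives were RLE and library totals, scaling by counts opposite microRNA genes, no filter, a stricter filter (10 counts in 3 libraries), genes without an opposite-strand gene, DESeq2 1.42.0 (the study's tool), all libraries in one fit, the replicate block and leaving out each library. Settings that combine no filter with another choice, and the ratios of eri-1, were added after the data were seen. The fits were tested on simulated data.

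The 9 genes and the lists were chosen with earlier results of these data known. All 9 genes are named. Other silencing genes were named where they passed, at most 5 per comparison by smallest adjusted p. The genes most alike were the 3 with the highest Pearson r. cde-1 appears under its name in the tables, cid-1. Same-numbered libraries deviated together in rde-4 against WT (correlations of deviations 0.19 to 0.39) and in age-1 against WT (0.22 to 0.38), every pair over 0.1, so the numbers were taken as pairing the samples there. This comes from the data, not the labels. Sequence shared between the genes was not analysed here.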

Additional observations from a re-analysis of the deposited data

How the results depend on the processing

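Of 533 alternative values for 28 results on single genes, 475 kept their sign and their side of the threshold, 39 changed sign, 12 lost a call and 7 gained one, and for these the cause was not tested. The rise of rrf-2 was lost (0 of the 9 genes called) with library totals, counts opposite microRNA genes as the scale, no filter, DESeq2, and no filter combined with the block or either scale (added after seeing the data), and the count was 0 to 1 on leaving out single libraries. In age-1 against WT, single libraries left out gave 0 to 1 as well. Against age-1, the double mutant had 1 call among genes without an opposite-strand gene, 2 with no filter and library totals (eri-1 and dcr-1) and 1 with no filter and counts opposite microRNA genes. Against rde-4 it had 2 with library totals, and 1 each with counts opposite microRNA genes, no filter and block, and no filter with either scale.

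Over all genes, the calls of rde-4 against WT went from 1283 to 708 among genes without an opposite-strand gene. Those of age-1 against WT went from 547 to 170 (library totals), 930 (no filter), 833 (genes without an opposite-strand gene) and 903 (DESeq2), and to 9 to 1925 on leaving out a library. Those of the double mutant against rde-4 went from 32 to 989 (library totals), 509 (counts opposite microRNA genes), 69 (no filter), 3 (genes without an opposite-strand gene) and 82 (DESeq2), and to 8 to 49 on leaving out a library. Those of the interaction went from 9 to 1 (RLE), 64 (library totals), 73 (counts opposite microRNA genes), 1 (genes without an opposite-strand gene) and 24 (DESeq2), and to 1 to 3 on leaving out a library. The summed CPM of 612, 971, 341 and 632 for WT, rde-4, age-1 and the double mutant came from the other denominator.

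With the replicate block, which pairs same-numbered libraries, 1 of the 9 genes was called in age-1 against WT, with 1956 calls over all genes. In the double mutant the numbers did not pair the samples by the rule used (correlations -0.17 to 0.16 against age-1 and 0.098 to 0.31 against rde-4), and the block gave 183 calls over all genes against rde-4 and 24 in the interaction. The block changed no other call on the 9 genes among those tested after the filter.

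With library totals, ego-1 stood at -0.0427 in rde-4 against WT, and at -0.0425 also without the filter. On leaving out WT replicate 3 or rde-4 replicate 2, or genes with an opposite-strand gene, rrf-1 stood at 0.18, 0.08 and 0.12 (single libraries left out, -0.21 to 0.18). Without age-1 replicate 3, dcr-1 stood at -0.23 in age-1 against WT (single libraries left out, -0.23 to 0.42). In the double mutant against age-1, dcr-1 stood at 0.25 without age-1 replicate 3 and among genes without an opposite-strand gene, and at 0.10 without double mutant replicate 3 (single libraries left out, -1.43 to 0.25). With library totals and counts opposite microRNA genes, with or without the filter, drh-3 stood at -0.61 and -0.46, ego-1 at -0.53 and -0.33 and rrf-3 at -0.97 and -0.79. rrf-3 also stood at -0.30 without the filter, -0.33 with no filter and block, -0.0321 by DESeq2 and -0.14 without double mutant replicate 2 (single libraries left out, -0.14 to 0.53). Against rde-4, drh-3 stood at -0.31 and -0.18 on those scales. In the interaction, both scales gave -0.48 for ego-1, and rrf-3 stood at -0.0629 and -0.0583, or -0.0626 and -0.0573 without the filter. There, ego-1 stood at -0.10 without WT replicate 2 and -0.02 without double mutant replicate 1 (single libraries left out, -0.10 to 0.70). The planned check of sequence repeated between genes was not run.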
